A study of Mus musculus with 10 samples.

Results

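The 9 genes described here encode matricellular and adhesive matrix proteins: the thrombospondins Thbs1 and Thbs2, tenascin C (Tnc), periostin (Postn), fibronectin (Fn1), osteonectin (Sparc) and its relative hevin (Sparcl1), versican (Vcan) and the TGF-beta-induced protein Tgfbi. They were taken by name, with earlier results of these data known, from a table of 35705 mouse genes, and all 9 passed the filter (an average of 1 TPM or more) that 13841 genes passed. TPM is a relative unit that states how abundant a transcript is per unit of its length within one library. RNA was sequenced from articular cartilage of 10 mice, 5 labelled as wild-type controls and 5 as Mir324-null, and each library held the cap of the medial knee of a single mouse with no treatment. The age, sex, strain, litter and batch of the mice were not given in the labels, so mice within a genotype may share more than their genotype. Mir324 encodes a microRNA hairpin from which 2 mature strands are cut, and in the null mice both strands are missing by design. The microRNA was not analysed here, and the labels were not checked against it.

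Matricellular proteins are secreted into the matrix without forming its load-bearing fibres. They bind collagens, proteases, growth factors and integrins, and so change how firmly cells hold on to the matrix and which signals reach them. In the skeleton, osteonectin is an abundant non-collagenous protein of bone that binds collagen and calcium, periostin is named after the periosteum in which bone-forming cells make it, and tenascin C marks tissue that is growing, loaded or injured. Fibronectin and versican form the provisional matrix on which other fibres are laid down, and thrombospondin 1 is stored in the granules of blood platelets.

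The mature strands of the deleted microRNA are shown first, because a transcript is bound mainly through bases 2 to 8 of a strand, its seed, given here in capitals. The sequences are RefSeq's, on the plus strand of chromosome 11 in GRCm38.p6.
mmu-miR-324-5p: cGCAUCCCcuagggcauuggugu
mmu-miR-324-3p: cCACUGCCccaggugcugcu
A 7-base match to a seed was looked for in the 3′ UTR of each gene, the longest one where several are annotated, whatever the type of transcript. For Tgfbi this was the 923 bases of Tgfbi-204, which is annotated for nonsense-mediated decay and held 8.34% of Tgfbi TPM. The 601 bases of the main transcript, Tgfbi-201, were not searched separately. None of the 9 genes held a match to the 5p seed, which 9.4% of 12623 tested genes with a 3′ UTR did. Thbs1 and Thbs2 each held 1 match to the 3p seed, which 17.3% of those genes did. The Thbs1 match lies at bases 839 to 845 of a 3′ UTR of 2104 bases (chr2:118125868-118125874, plus strand, GRCm38), and the Thbs2 match at bases 789 to 795 of 2013 (chr17:14666718-14666724, minus strand). Both are shown with the match in capitals.
Thbs1 site: tccgcaggaggGGCAGTGcgcctttactt
Thbs2 site: tgcctgggttgGGCAGTGtggaaagcata
A match of this kind is a string of letters, and whether either strand binds there was not measured.

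Promoter windows of Postn and Tnc are shown because these 2 genes had the most similar levels across mice among all pairs of the 9. Each window runs from 250 bases before to 50 bases after a RefSeq start site in GRCm38.p6, and capitals mark the motifs TATAAA and GGGCGG, searched on both strands. The Postn window lies at chr3:54360857-54361156 on the plus strand and the Tnc window at chr4:64046966-64047265 on the minus strand. The Tnc window covers the start of the first exon of the transcript Tnc-204. Tnc-201, which held 61.1% of Tnc TPM, is annotated without that exon.
Postn promoter: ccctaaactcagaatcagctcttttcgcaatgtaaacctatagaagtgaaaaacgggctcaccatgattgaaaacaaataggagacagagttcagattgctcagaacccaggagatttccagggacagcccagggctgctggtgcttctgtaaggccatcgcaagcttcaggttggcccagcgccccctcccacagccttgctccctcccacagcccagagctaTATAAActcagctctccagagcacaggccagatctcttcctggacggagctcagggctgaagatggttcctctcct
Tnc promoter: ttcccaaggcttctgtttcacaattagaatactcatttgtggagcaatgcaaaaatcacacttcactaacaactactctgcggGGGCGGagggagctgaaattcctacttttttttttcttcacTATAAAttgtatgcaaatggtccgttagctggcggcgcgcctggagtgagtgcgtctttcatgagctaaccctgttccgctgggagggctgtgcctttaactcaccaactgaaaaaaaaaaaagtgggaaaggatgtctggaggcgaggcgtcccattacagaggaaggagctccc
In the Postn window TATAAA starts at base -26 from the start site, and in the Tnc window it starts at base -126 with GGGCGG at base -167. TATAAA was present in 13.6% and GGGCGG in 35.7% of 32851 windows of this length. The motifs CCAAT (37.4%) and TGANTCA (7.81%) were in neither of these 2 windows. Both genes have another RefSeq window that is not printed. That of Postn (chr3:54359017-54359316) held 1 CCAAT match and no TATAAA. That of Tnc (chr4:64046887-64047186) overlaps the printed one and held TATAAA from base -205 and GGGCGG from base -246. Further downstream, past the end of the printed window, it also held TATATAA, which a search for exact TATAAA does not count. Of the 9 genes, 6 had a window in the RefSeq table, and the Sparc window held none of the 4 motifs.

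The libraries labelled as cartilage also held RNA of bone, marrow and blood. Chondrocyte markers (7 of 10 above 1 TPM on average) summed to 326 to 941 TPM in wild-type and 221 to 361 TPM in null libraries. Osteoblast and osteocyte markers summed to 6312 to 14820 and 3544 to 7319 TPM, and erythroid markers to 112600 to 198800 and 159200 to 263600 TPM. Over all genes, limma found 0 of 13841 with an adjusted p under 0.05 (0%), with a minimum of 0.277. Without adjustment, p was under 0.05 for 592 genes (4.28%) with higher and 1011 (7.3%) with lower values in null mice. That split was 1228 against 591 when TPM were rescaled without the haemoglobin genes, 916 against 857 after median ratio scaling and 882 against 936 after quantile normalization. Genes whose 2 groups did not overlap numbered 269 (1.94%). Wild-type replicate 1 lay apart on the first principal component, at -54.8 against -9.22 to 8.26 for the other wild-type mice. Differences of the 9 genes that moved by over 1.5 times or turned sign without it are given without it as well. TPM values carry no read counts, so depth is unknown, and all p-values measure the spread between single mice.

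Osteonectin was by far the most abundant of the 9 transcripts per unit length. Sparc averaged 1671 ± 699 TPM over all 10 mice (mean ± SD), Fn1 525 ± 261, Tnc 106 ± 42.5, Tgfbi 70.5 ± 11.95 and Thbs1 68.3 ± 15.0. Postn followed at 28.9 ± 17.7, Vcan at 15.7 ± 8.02, Sparcl1 at 14.3 ± 9.37 and Thbs2 at 4.67 ± 1.82. Sparc was above Fn1, Fn1 above Tnc and Sparcl1 above Thbs2 in 10 of 10 mice. For 4 pairs of neighbours in this order the gap between the means was smaller than the larger SD of the 2 genes. Within single mice 2 of these pairs still kept one order in most mice, with Tnc above Tgfbi and Postn above Vcan in 9 of 10 each, as Thbs1 was above Postn. The other two did not, with Tgfbi above Thbs1 in 5 of 10 mice and Vcan above Sparcl1 in 6 of 10. Together the 9 genes held 0.301% ± 0.102 of the TPM of a wild-type library and 0.200% ± 0.0624 of a null library (SD, n = 5 each).

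The genes differed widely in how far mice of one genotype lay apart. Sparcl1 spread most, with a highest value 6.19 times its lowest over the 10 mice, and Postn (5.78 times), Fn1 (4.69 times) and Vcan (4.30 times) followed. Tgfbi spread least, at 1.61 times. The SD left within genotypes on the log2 scale was 0.86 for Sparcl1, 0.75 for Vcan, 0.73 for Fn1 and 0.59 for Postn, against 0.29 for Thbs1 and 0.26 for Tgfbi. Among the 500 tested genes closest in mean level, Sparcl1 was at the 99.2nd percentile of this SD, Fn1 at the 98.96th, Vcan at the 97.8th and Postn at the 97.4th. Even Tgfbi, the steadiest of the 9, was at the 75.2nd.

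**Figure D1:**
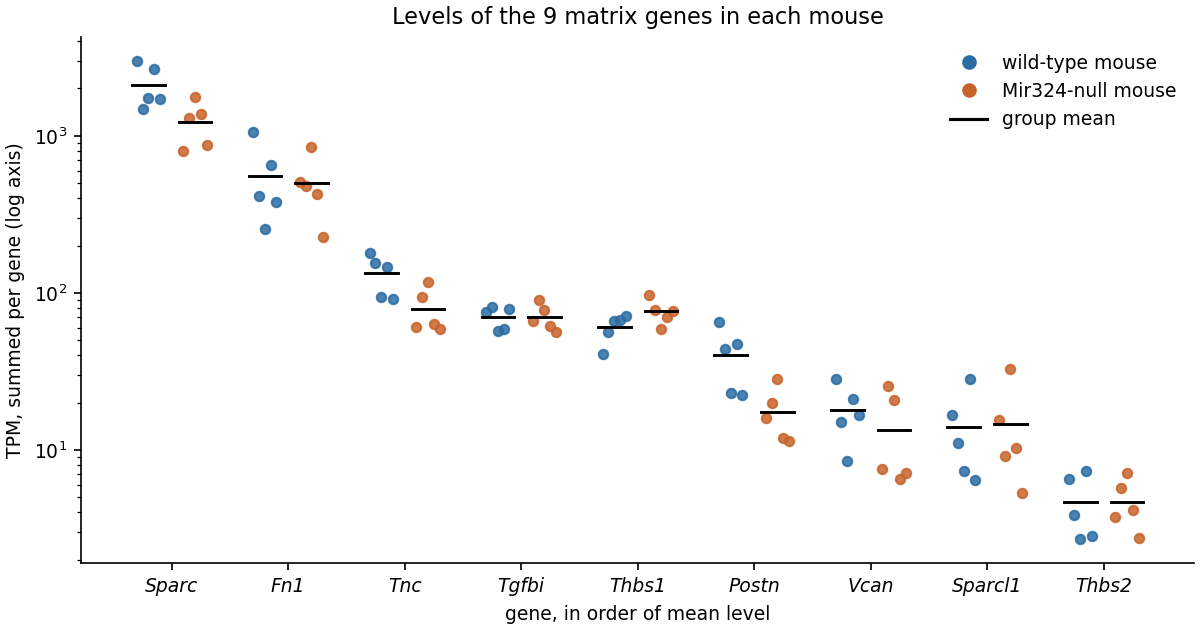
TPM of each of the 9 genes (log axis) in each wild-type and Mir324-null mouse, with points for mice and lines for group means, ordered by mean level. The groups overlap for all 9 genes, and the lines lie furthest apart for Postn (40.3 against 17.5 TPM), Sparc (2117 against 1224 TPM) and Tnc (134 against 78.8 TPM).

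Which of these genes differ in cartilage without miR-324 was asked by comparing the genotypes with limma on log2(TPM + 1). None of the 9 passed an adjusted p of 0.05 (0 of 9, as 0% of all genes). At an unadjusted p under 0.05, Postn, Sparc and Tnc were lower in null mice, which is 3 of 9 (33.3%) beside 7.3% of all genes, and 0 of 9 were higher beside 4.28%. No gene of the 9 had groups that did not overlap, beside 1.94% of all genes. The median log2 difference of the 9 was -0.097, and that of all genes tested -0.045.

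Periostin, which binds collagen and integrins, and tenascin C, which loosens cell adhesion to fibronectin, were both lower on average in null mice. Postn was at 65.5, 43.7, 22.95, 47.0 and 22.5 TPM in wild-type replicates 1 to 5. In null replicates 1 to 5 it was at 16.0, 19.8, 28.2, 11.95 and 11.3 TPM. All 5 null mice were below the wild-type mean and 4 were below every wild-type mouse, while null replicate 3 lay among them. The log2 difference was -1.12 (SE 0.318, 95% interval -1.82 to -0.43, limma p = 0.00437, adjusted p = 0.305), and the two-sided exact permutation test gave p = 0.0317, where 0.00794 is the smallest it can give. Tnc was at 180, 155, 94.35, 147 and 91.55 TPM in the wild-type mice and at 60.2, 93.8, 117, 63.7 and 59.1 TPM in the null mice. Wild-type replicates 3 and 5 were the low ones for both genes, and null replicate 3 was the high one for both. The Tnc difference was -0.76 (SE 0.239, limma p = 0.00832, adjusted p = 0.319, exact permutation p = 0.0397), with 3 null mice below every wild-type mouse. Without wild-type replicate 1 the differences were -0.92 for Postn (adjusted p = 0.49) and -0.64 for Tnc (adjusted p = 0.525).

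Osteonectin and hevin share a protein family and were read side by side. Sparc was at 3006, 1490, 1729, 2649 and 1709 TPM in wild-type mice 1 to 5 and at 798, 1304, 1765, 1378 and 876 TPM in null mice 1 to 5. Of the null mice, 4 were below every wild-type mouse and replicate 3 was not. The log2 difference was -0.80 (SE 0.249, 95% interval -1.34 to -0.25, limma p = 0.00784, adjusted p = 0.319, exact permutation p = 0.0317). It was -0.66 without wild-type replicate 1 (adjusted p = 0.505). Sparcl1, which is best known from blood vessel walls and brain, was at 16.8, 11.1, 7.35, 28.2 and 6.44 TPM in wild-type and at 15.5, 9.10, 32.9, 10.3 and 5.32 TPM in null mice. Its highest values were in wild-type replicate 4 and null replicate 3, and the groups covered nearly the same range. The difference was 0.011 with a 95% interval of -0.99 to 1.01 (exact permutation p = 0.984), the widest interval of the 9, and 0.12 without wild-type replicate 1.

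Thrombospondin 1, an adhesive protein of platelet granules and wound matrix, had the largest upward difference of the 9. Thbs1 was at 40.7, 56.5, 66.0, 67.2 and 71.5 TPM in wild-type mice and at 97.5, 78.0, 58.7, 69.95 and 76.7 TPM in null mice. Wild-type replicate 1 was the lowest and null replicate 1 the highest, and 3 null mice were above every wild-type mouse. The log2 difference of 0.34 (SE 0.166, 95% interval -0.026 to 0.70) did not pass the test (limma p = 0.0656, adjusted p = 0.469, exact permutation p = 0.103), and it was 0.21 without wild-type replicate 1. Its unadjusted p was 0.0408 without wild-type replicate 5 (difference 0.40) and 0.027 without Mir324-null replicate 3 (difference 0.43), with adjusted p of 0.382 and 0.296. Thbs2, a thrombospondin made by fibroblasts, was at 6.50, 3.86, 2.71, 7.32 and 2.85 TPM in wild-type and at 3.72, 5.69, 7.10, 4.17 and 2.77 TPM in null mice. Its groups covered the same range, and the difference was 0.040 (95% interval -0.56 to 0.64, exact permutation p = 0.881), or 0.16 without wild-type replicate 1. The 2 genes that hold a 3p seed match therefore had differences of 0.34 and 0.040, neither of which passed the test.

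Among the adhesive proteins, fibronectin, the main ligand of several integrins, varied several-fold between mice of one genotype. Fn1 was at 1063, 412, 256, 651 and 381 TPM in wild-type mice and at 511, 480, 844, 423 and 227 TPM in null mice. The difference was -0.097 (SE 0.389, 95% interval -0.95 to 0.75, exact permutation p = 0.817), and its sign turned to 0.18 without wild-type replicate 1. Vcan, the large chondroitin sulfate proteoglycan that binds hyaluronan, was at 28.1, 15.1, 8.51, 21.04 and 16.8 TPM in wild-type and at 7.59, 25.4, 20.7, 6.53 and 7.11 TPM in null mice. Null replicates 1, 4 and 5 were below every wild-type mouse and null replicates 2 and 3 were not, which gave a difference of -0.51 (SE 0.399, exact permutation p = 0.325, limma adjusted p = 0.689). The Vcan difference was -0.33 without wild-type replicate 1, -0.33 without Mir324-null replicate 4, -0.78 without Mir324-null replicate 2 and -0.30 from complete protein-coding transcripts alone, and none of these passed an adjusted p of 0.05. Tgfbi, which links collagens to integrins, was at 75.7, 81.6, 57.1, 59.1 and 79.3 TPM in wild-type and at 66.3, 90.6, 77.5, 61.7 and 56.3 TPM in null mice. Its difference of -0.0070 had the narrowest interval of the 9, -0.33 to 0.32 (exact permutation p = 0.976), and was 0.022 without wild-type replicate 1.

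Marker genes of several cell types moved with genotype beside these values. Of the osteoblast and osteocyte markers 9 of 10 were lower in null mice at an unadjusted limma p under 0.05, as were 6 of 6 tested osteoclast markers and 6 of 7 tested chondrocyte markers, beside 7.3% of all genes. Of the megakaryocyte and platelet markers 8 of 8 were higher, and of the erythroid markers 4 of 7, beside 4.28%. The score of a list, its mean log2(TPM + 1), differed by -0.86 for osteoblasts and osteocytes, -0.95 for osteoclasts, -0.73 for chondrocytes, 0.49 for megakaryocytes and platelets and 0.46 for erythroid cells. Differences were -0.24 for endothelial, -0.35 for mural, -0.09 for neutrophil, 0.02 for monocyte and macrophage, 0.15 for tendon, 0.32 for fibroblast and synovium and 0.41 for skeletal muscle markers, the last with 2 of 8 tested. The fibroblast and synovium list was split, with 6 estimates above and 4 below 0. Its 2 most abundant genes were lower on average in null mice. Prg4 was at 2902 ± 1492 against 1737 ± 411 TPM and Dcn at 968 ± 515 against 781 ± 232 TPM (limma adjusted p = 0.449 and 0.877). When single mice were left out, the fibroblast and synovium difference ran from 0.14 (without Mir324-null replicate 3) to 0.49 (without wild-type replicate 1). The skeletal muscle difference ran from 0.066 (without Mir324-null replicate 2) to 0.57 (without Mir324-null replicate 1), and the tendon difference was 0.45 without wild-type replicate 1. Leading examples were Bglap, the bone protein osteocalcin, at 3577 ± 1430 against 1596 ± 452 TPM and Acp5, an osteoclast acid phosphatase, at 933 ± 370 against 428 ± 224 TPM (SD, n = 5 each). The platelet chemokine Pf4 was at 549 ± 88.8 against 745 ± 192 TPM. In tissue RNA, fewer cells of a type and less RNA per cell cannot be told apart.

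Across the 10 mice each gene was set against each of the 12 marker scores, 108 relations in all. Of these, 31 had an adjusted permutation p for Pearson's r under 0.05. The share among other tested genes was not computed, so this count cannot be read as particular to the genes described here. Sparc followed the osteoblast and osteocyte score (r = 0.97, rho = 0.88, permutation p = 0.00011 and 0.00177, adjusted 0.00378 and 0.0268), and r was 0.95 without the 2 mice farthest from the median of that score. Against marker scores, the 2 farthest mice were always taken on the score, so they can differ from score to score. Tnc was closest to the osteoclast score (r = 0.97, rho = 0.95, permutation p = 3e-05 and 0.00012, adjusted 0.00324 and 0.013, r = 0.97 without the 2 farthest mice). Postn was close to both, at r = 0.94 with the osteoclast and 0.92 with the osteoblast score (adjusted permutation p = 0.00378 and 0.00583). After each genotype's mean was removed, r was 0.95 for Sparc with the osteoblast score and 0.95 for Tnc with the osteoclast score. Postn was then at 0.87 with the osteoclast and 0.83 with the osteoblast score, below its 0.93 with the fibroblast and 0.92 with the tendon score. With the fibroblast score Tnc was at 0.87 and Sparc at 0.81 after this step, against 0.38 and 0.34 over all mice as they stood. High r within genotypes was therefore not limited to the bone-cell scores.

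The other genes were closest to several different scores, and some of them also followed the scores named for Sparc, Tnc and Postn. Vcan was closest to the endothelial score over all 10 mice (r = 0.85, rho = 0.84, adjusted permutation p = 0.00671 and 0.031). It also had r = 0.81 with the chondrocyte and 0.79 with the osteoblast score (rho = 0.82 and 0.75, adjusted permutation p for r 0.0118 and 0.0233, for rho 0.0347 and 0.0648). After genotype means were removed, Vcan had r = 0.85 with the endothelial score, and Thbs2 and Fn1 had r of 0.93 and 0.88 with the osteoblast score. Thbs1 went with the megakaryocyte and platelet score (r = 0.88, rho = 0.81, permutation p = 0.00053 and 0.00713, adjusted 0.00621 and 0.0382), and r stayed at 0.88 without the 2 farthest mice. With genotype means removed, Thbs1 had r = 0.83 with that score. It went against the osteoblast score (r = -0.80, rho = -0.70, adjusted permutation p = 0.0233 and 0.107). Thbs2 was closest to the fibroblast and synovium score (r = 0.92, rho = 0.82, adjusted permutation p = 0.00621 and 0.0347). Over all 10 mice Fn1 had its highest r with the tendon score, which rests on 3 tested genes (r = 0.87, rho = 0.89, adjusted permutation p = 0.00756 and 0.0242). That order did not hold without the 2 farthest mice, where r was 0.64 with the tendon and 0.72 with the fibroblast score, or after genotype means were removed, where it was 0.89 and 0.91. Over all 10 mice Tgfbi was closest to the monocyte and macrophage score (r = 0.78, rho = 0.81, adjusted permutation p = 0.0366 and 0.0382). There r was 0.56 without the 2 mice farthest in that score. With the neutrophil score r was 0.43 over all mice and 0.64 without the 2 mice farthest in it. Those were different mice, so these 2 reduced values cannot be ranked. All scores and genes come from the same libraries and share their scaling.

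**Figure D2:**
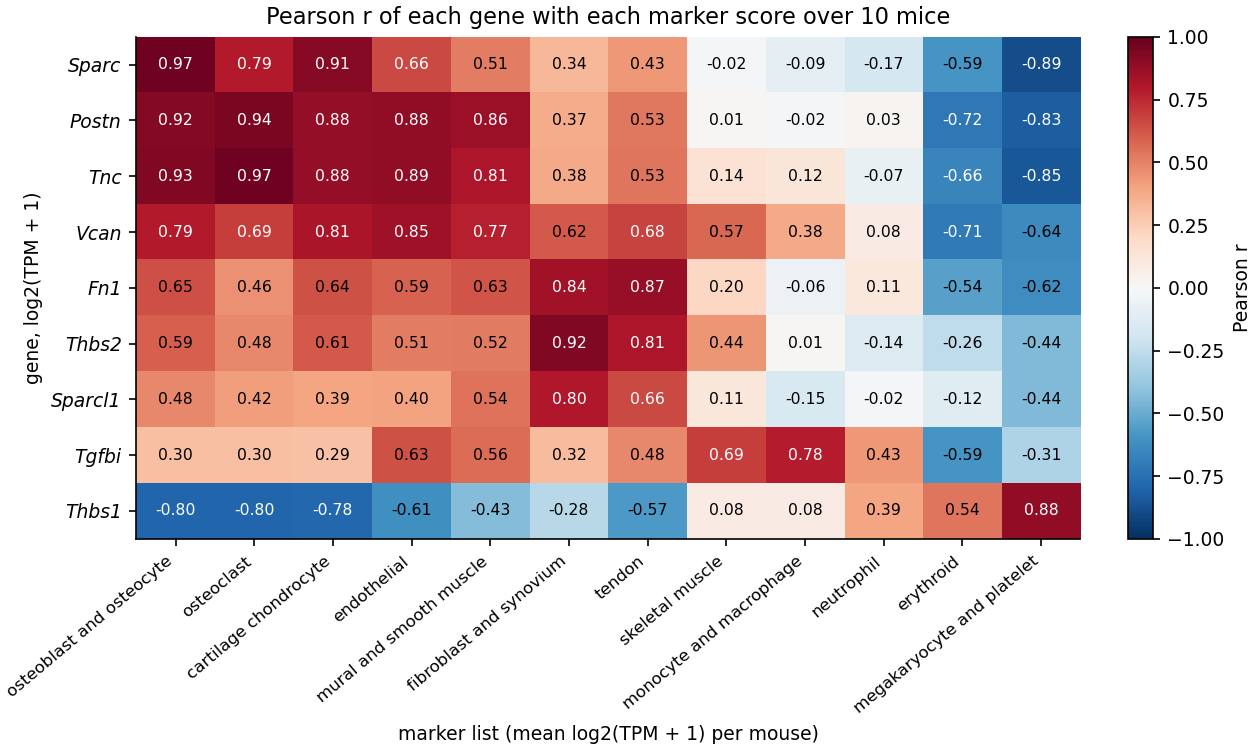
Pearson r over 10 mice between log2(TPM + 1) of each gene (vertical axis) and each of 12 marker scores (horizontal axis), with red for positive and blue for negative values. Sparc, Postn and Tnc are positive with osteoblast, osteoclast and chondrocyte scores and negative with the megakaryocyte and platelet score, and Thbs1 has the opposite signs.

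**Figure D3:**
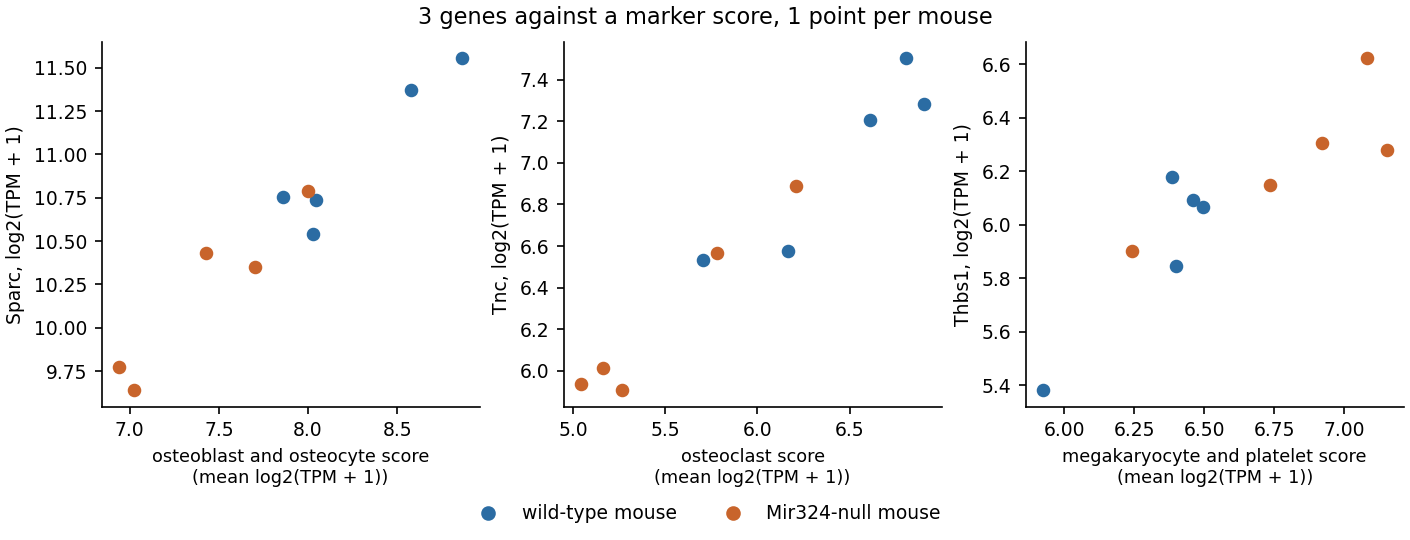
Level of Sparc, Tnc and Thbs1 (log2(TPM + 1), vertical axes) against the osteoblast and osteocyte, osteoclast, and megakaryocyte and platelet scores (horizontal axes), with 1 point per mouse in the color of its genotype. Points of both genotypes run along one slope in each panel, with r of 0.97, 0.97 and 0.88.

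When the osteoblast and osteocyte score of each mouse was added to the fit, the differences of the 3 lower genes shrank. Postn was then at -0.16 (limma adjusted p = 0.989), Tnc at -0.02 (adjusted p = 0.9975) and Sparc at 0.054 (adjusted p = 0.991). In the same fit Fn1 was higher in null mice by 1.17 (SE 0.294, limma adjusted p = 0.411), Thbs2 by 0.93 (SE 0.195, adjusted p = 0.275) and Sparcl1 by 1.21 (SE 0.502, adjusted p = 0.929). The unadjusted p of these 3 genes was under 0.05, and that of no other gene of the 9 was. With the fibroblast and synovium score in the fit instead, Postn was at -1.45 (limma adjusted p = 0.00849), Tnc at -0.985 (adjusted p = 0.0141) and Sparc at -1.02 (adjusted p = 0.0144). In that fit 959 of 13841 genes passed, so the 3 genes were among many. The scores themselves differed between genotypes, so genotype and cell content cannot be told apart in either fit.

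**Figure D4:**
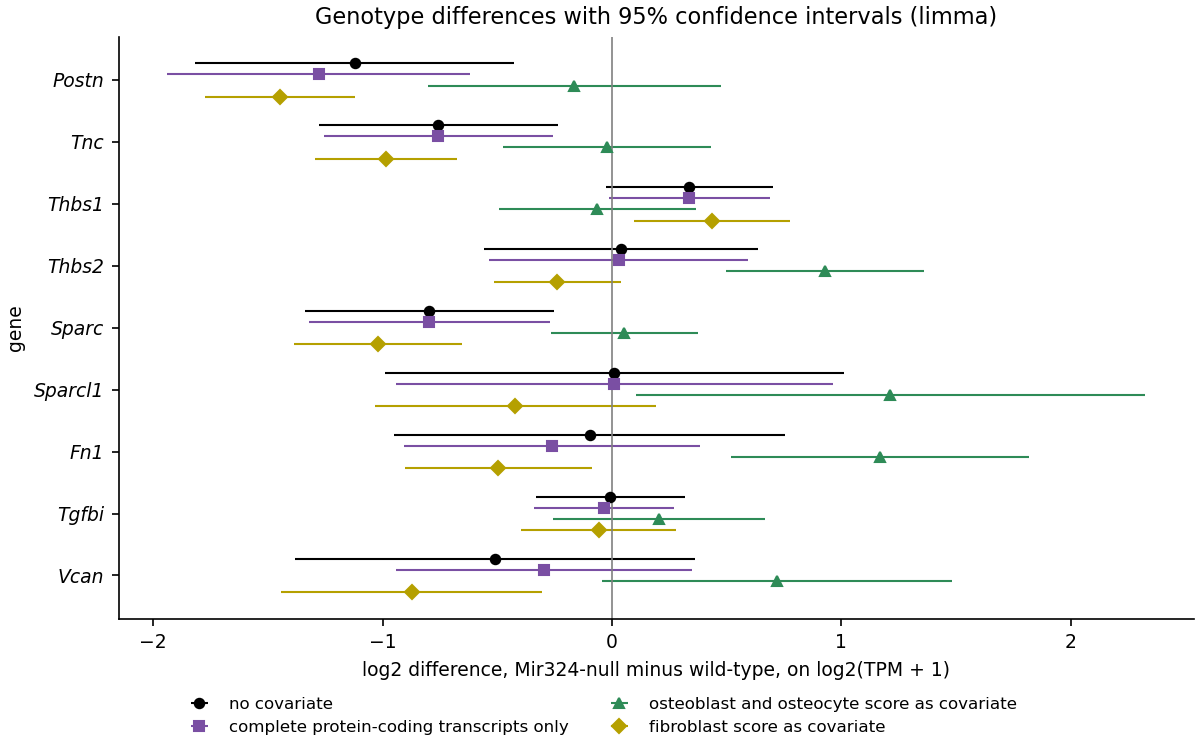
Log2 difference (Mir324-null minus wild-type, horizontal axis) of each gene with its 95% limma confidence interval, in 4 fits that differ in covariate or in the transcripts summed. Postn, Tnc and Sparc lie left of 0 in 3 of the fits and within error of 0 with the osteoblast score, where Fn1, Thbs2 and Sparcl1 lie right of 0.

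Of 36 pairs among the 9 genes, 11 had an adjusted permutation p for r under 0.05. The share among pairs of other genes was not computed, so this count too cannot be read as particular to the 9. Tnc and Postn were the closest pair (r = 0.98, rho = 0.96, permutation p = 1e-05 and 7e-05, the former the smallest the permutations can give, adjusted 0.00036 and 0.00252), and r was 0.96 without the 2 farthest mice and 0.95 after removing genotype means. Thbs2 and Fn1 were also close (r = 0.88, rho = 0.87, adjusted permutation p = 0.00918 and 0.0196), as were Fn1 and Sparcl1 (r = 0.83, rho = 0.90, adjusted permutation p = 0.0189 and 0.0144). Thbs2 and Sparcl1 had r = 0.85 and rho = 0.83 (adjusted permutation p = 0.0169 and 0.0271). With genotype means removed, Thbs2 had r of 0.88 with Fn1, 0.89 with Postn and 0.88 with Tnc, so these pairs did not stand apart from Tnc and Postn. Thbs1 went against Tnc (r = -0.81, rho = -0.85, adjusted permutation p = 0.0169 and 0.0196) and against Sparc (r = -0.79, rho = -0.81, adjusted permutation p = 0.0258 and 0.0311), but r with Sparc was -0.44 without the 2 farthest mice. Sparc and Sparcl1 had r = 0.46 and rho = 0.52 (adjusted permutation p = 0.240 and 0.209), with r = 0.68 without the 2 farthest mice and 0.65 after removing genotype means.

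The 2 tested genes whose level over the 10 mice was most like each of the 9 were also found, by Pearson's r. For Tnc these were Mmp14 (r = 0.99), a membrane protease that cuts matrix proteins, and Pheta1 (0.99). For Postn they were the creatine transporter Slc6a8 (0.98) and Cd109 (0.98), and for Sparc the collagen chain Col1a2 (0.99) and Smad6 (0.99), an inhibitor of BMP signalling. Thbs1 was most like Tnik (0.97) and Tubb1 (0.96), the beta-tubulin of platelets. Tubb1 had a mean of 58.4 ± 17.4 TPM in wild-type mice against 90.2 ± 23.9 TPM in the null ones (SD, n = 5 each). Fn1 was most like C1qtnf5 (0.98) and Sod3 (0.97), Thbs2 like Lrrn4cl (0.96) and Gfpt2 (0.96), Sparcl1 like Tufm (0.98) and Fbln7 (0.96), Vcan like Pogk (0.96) and Phlda1 (0.96), and Tgfbi like Nub1 (0.97) and Nod2 (0.97). The 9 genes themselves, pseudogenes and unnamed gene models were left out of this search. Each gene was picked for the highest r among the rest of the 13841 tested genes, so no test is given.

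The table lists transcripts, which allowed the splice forms of the 9 genes to be followed. They had 59 annotated transcripts, of which 26 had a mean of at least 1 TPM. None of the 26 passed an adjusted p of 0.05 in a limma fit over 31817 transcripts, 8 were lower in null mice at an unadjusted p under 0.05 (4.14% of all transcripts were) and 0 were higher. All 8 were transcripts of Postn, Sparc and Tnc, the genes already found lower as wholes, so they are not a separate result. Thbs1, Thbs2, Sparcl1 and Tgfbi each had 1 transcript that held nearly all of their TPM. The lowest share of these in any library was that of Tgfbi-201, 87.06% in null replicate 1, and its group means were 92.1% and 90.4%.

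The periostin gene has 2 small coding exons that are kept or skipped, of 81 bases (chr3:54380412-54380492) and of 84 bases (chr3:54385671-54385754). They are printed whole in lower case, since the entire exon is the unit that is kept or skipped.
Postn exon of 81 bases: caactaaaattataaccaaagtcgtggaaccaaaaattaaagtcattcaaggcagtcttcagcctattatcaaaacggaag
Postn exon of 84 bases: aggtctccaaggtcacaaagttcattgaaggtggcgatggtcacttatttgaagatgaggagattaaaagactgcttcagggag
Postn-203, which keeps the first and skips the second, was the only transcript of the 26 whose groups did not overlap (0.742% of all transcripts were lower without overlap). It was singled out after its values were seen. It was at 5.22, 3.84, 2.83, 7.01 and 3.69 TPM in wild-type mice and at 1.64, 0.935, 1.25, 0.776 and 1.19 TPM in null mice. Every null mouse was below every wild-type mouse, and the log2 difference was -1.32 (SE 0.227, limma p = 0.000138, adjusted p = 0.487, exact permutation p = 0.00794). Postn-204, which skips both, differed by -1.08 (SE 0.381, adjusted p = 0.589) and Postn-201, which keeps the second, by -1.21 (SE 0.415, adjusted p = 0.582). Among complete transcripts the first exon was held by 19.3% ± 4.18 of Postn TPM in wild-type and 14.2% ± 6.21 in null mice, and the second by 27.3% ± 6.22 and 26.4% ± 14.1 (SD, n = 5 each). Both pairs of groups overlapped. A partial transcript of 655 bases, Postn-206, held 39.7% of Postn TPM, and with complete protein-coding transcripts alone the gene's difference was -1.28.

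Fibronectin transcripts keep or skip an extra domain A and an extra domain B, and a variable region is kept whole, shortened or removed. The extra domain A exon is shown because forms that keep it are the cellular fibronectin of tissues, while the plasma form made by liver lacks it (chr1:71603660-71603929, minus strand).
Fn1 extra domain A: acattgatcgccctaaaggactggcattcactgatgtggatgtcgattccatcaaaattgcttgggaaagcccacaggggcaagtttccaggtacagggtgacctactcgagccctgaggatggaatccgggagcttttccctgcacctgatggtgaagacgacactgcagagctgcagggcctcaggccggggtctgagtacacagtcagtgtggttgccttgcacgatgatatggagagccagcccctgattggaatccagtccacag
Of the TPM of the 7 complete Fn1 transcripts, those with extra domain A held 6.59% ± 1.75 in wild-type and 6.40% ± 1.44 in null mice, and extra domain B was in 2.70% ± 0.620 and 2.77% ± 0.336 (SD, n = 5 each). The variable region was whole in 40.8% ± 3.35 and 39.9% ± 3.44, shortened in 24.6% ± 4.35 and 31.8% ± 4.91, and removed in 34.6% ± 6.52 and 28.3% ± 7.35. All 5 pairs of groups overlapped. Most Fn1 TPM was not in complete transcripts: retained-intron transcripts of 4022 and 495 bases held 28.8% and 37.0% of it, and complete protein-coding ones 35.4% ± 7.36 in wild-type and 31.2% ± 3.48 in null mice. The level given for Fn1 above therefore rests in large part on incomplete or intron-retaining transcripts, and from complete transcripts alone its difference was -0.26 (limma adjusted p = 0.77).

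**Figure D5:**
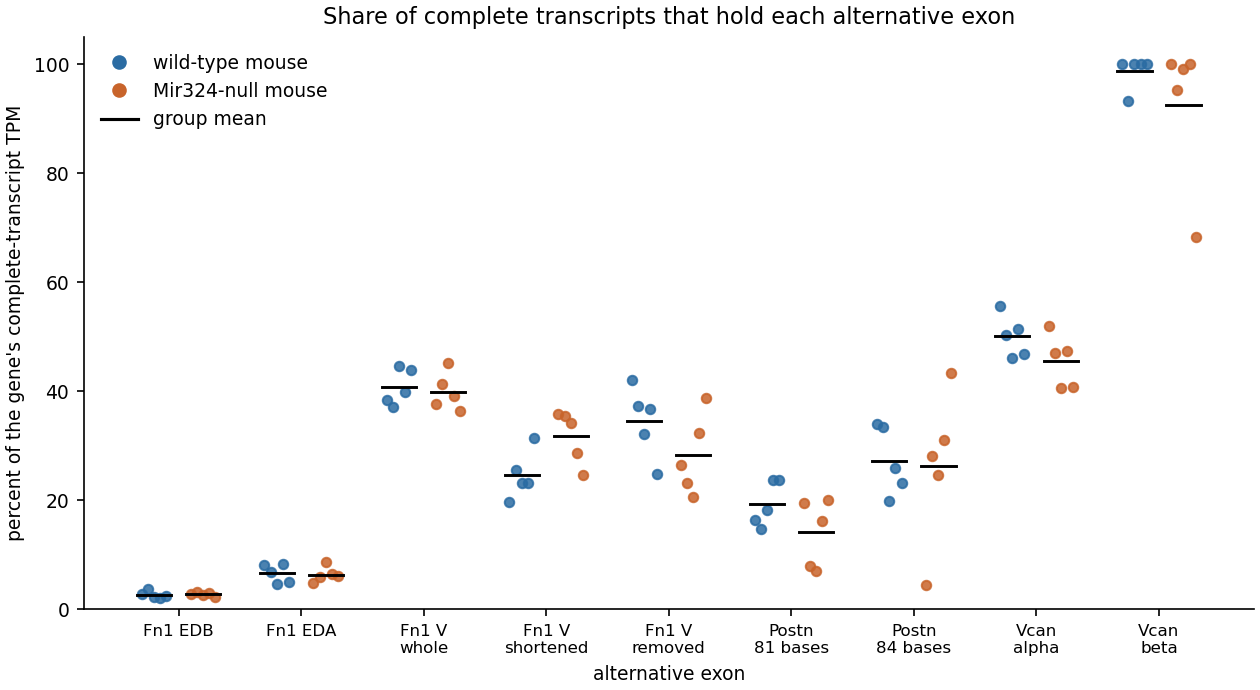
Percent of the TPM of a gene's complete transcripts (vertical axis) that hold each alternative exon of Fn1, Postn and Vcan, with points for mice and lines for group means. The groups overlap for every exon, and few Fn1 transcripts hold extra domain A (6.59% and 6.40%) or B (2.70% and 2.77%).

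Versican is cut into forms by 2 large exons that carry its glycosaminoglycan chains, alpha of 2880 and beta of 5217 bases. Beta was in 98.6% ± 3.02 of complete-transcript TPM in wild-type and 92.5% ± 13.7 in null mice, where null replicate 5 was at 68.2%. Alpha was in 50.1% ± 3.82 and 45.6% ± 4.83 (SD, n = 5 each). These shares come from transcripts of few TPM, 3.32 ± 2.002 and 2.23 ± 0.854 for Vcan-203 with both exons and 3.05 ± 1.38 and 2.50 ± 1.42 for Vcan-206 with beta alone. A partial transcript of 294 bases, Vcan-204, held 35.7% of Vcan TPM. It was at 0 and 0.00056 TPM in null replicates 1 and 4, at 2.67, 8.755 and 15.1 TPM in null replicates 5, 3 and 2, and at 3.16 to 10.8 TPM in the wild-type mice. Null replicates 1, 4 and 5 were thus below every wild-type mouse for this transcript, as they were for the gene. Another partial transcript of 861 bases, Vcan-208, held 24.3%. Tnc was made up of Tnc-201 (61.1%) and Tnc-204 (33.3%), which has a further noncoding first exon of 267 bases. They differed between genotypes by -0.73 (SE 0.239) and -0.78 (SE 0.300), with limma adjusted p of 0.581 and 0.610. Sparc-202 (77.8%) and Sparc-201 (22.2%), which differ in their first exon and by 3 coding bases, differed by -0.80 (SE 0.259) and -0.77 (SE 0.277), with adjusted p of 0.581 and 0.589. Of the share of each transcript within its gene, 20 could be tested, and 0 had an unadjusted limma p under 0.05 (4.67% of all shares did), with a smallest p of 0.0752.

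Other genes of the same pathways were read from the same fit, in 4 lists, to be set beside the 7.3% of all genes that were lower and the 4.28% that were higher at an unadjusted p under 0.05, and the median of -0.045 over all genes. Of the relatives of the matricellular proteins, 18 of 24 were tested, 4 were lower (22.2%) and 1 higher in null mice at an unadjusted p under 0.05, and the median difference was -0.25. That median was -0.025 when wild-type replicate 1 was left out and -0.15 when Mir324-null replicate 5 was, so it rests largely on single mice. Osteopontin (Spp1), a bone matrix protein bound by integrins, had a mean of 1832 ± 582 TPM in wild-type mice against 958 ± 225 TPM in the null ones (SD, n = 5 each), a log2 difference of -0.90 (limma adjusted p = 0.283). Ccn4 was at -0.87 and the Sparc relative Smoc2 at -0.86 (adjusted p = 0.291 and 0.319). None of the 66 tested genes of the 4 lists passed an adjusted p of 0.05.

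Of the integrins and other receptors 20 of 23 were tested, with 3 lower (15%, beside 7.3% of all genes) and 2 higher (beside 4.28%) and a median of -0.16, which was -0.075 without wild-type replicate 1, -0.085 without Mir324-null replicate 4 and -0.095 without Mir324-null replicate 5. Itgav, the alpha chain of the integrins that bind periostin, osteopontin and fibronectin, was at 58.6, 38.0, 28.0, 42.1 and 24.7 TPM in wild-type and at 14.5, 21.9, 22.0, 20.1 and 16.6 TPM in null mice. Its groups did not overlap, and the difference was -0.92 (SE 0.213, limma adjusted p = 0.277, exact permutation p = 0.00794, the smallest possible). Sdc4, a proteoglycan that joins integrins at the fibronectin matrix, was the other gene of the list without overlap (2 of 20, beside 1.94% of all genes), at 60.7 ± 27.2 against 34.3 ± 4.70 TPM (difference -0.72, adjusted p = 0.319). Itgb3, which pairs with Itgav and also forms the platelet fibrinogen receptor, was at 0.35 (adjusted p = 0.350). Itga2b, the platelet partner of Itgb3, one of the 8 platelet markers and named after its values were seen, was at 0.43 (adjusted p = 0.391).

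Of the genes for versican and hyaluronan handling 12 of 17 were tested, with 3 lower (25%, beside 7.3% of all genes), 0 higher (beside 4.28%) and a median of -0.29, which was -0.175 without Mir324-null replicate 5. Aggrecan (Acan) was at -0.86, the link protein Hapln1 at -0.66 and the versican-cutting protease Adamts9 at -0.62 (limma adjusted p = 0.331, 0.350 and 0.369). Acan and Hapln1 are also chondrocyte markers. Of the fibronectin, fibrillin and elastic fibre partners 16 of 18 were tested, with 5 lower (31.2%, beside 7.3% of all genes), 0 higher (beside 4.28%) and a median of -0.22. Lox, which cross-links collagen and elastin, was at -0.75, the microfibril protein Mfap2 at -0.80 and Fbln5, which aids elastic fibre assembly, at -0.39 (adjusted p = 0.292, 0.308 and 0.316). With the osteoblast score in the fit the 4 list medians were 0.22, 0.13, 0.10 and 0.25.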

How the data were processed

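Per the labels' protocols, total RNA of 10 frozen, ground knee cartilage caps (5 wild-type, 5 Mir324-null) was converted to libraries with a kit for low RNA input. The authors deposited TPM values per transcript, whose columns each sum to 1000000. The submitters' processing notes list kallisto, DESeq2 and GRCh38, a human build, while the deposited table holds mouse Ensembl identifiers. Which index and versions were used is not given in the sources used here, and the TPM values carry no depth.

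Transcript identifiers were matched without version to GENCODE M21 (GRCm38). 115440 of 116912 matched, and TPM were summed per gene. Genes averaging 1 TPM or more were compared on log2(TPM + 1) with limma 3.58.1 in R 4.3.3 (lmFit, eBayes with trend, two-sided, Benjamini-Hochberg over all genes). Differences on this scale understate changes of low genes. Transcripts and transcript shares (percent of gene TPM, for mean shares of 5 to 95) were fitted the same way. Exact permutation tests used all 252 splits of the mice. Relations across mice were tested with 100000 permutations and adjusted over their family. The 2 farthest mice were those farthest from the median of the marker score or, for a pair of genes, of the gene named first. The fit was tested on simulated data. Other steps used Python 3.11.15, numpy 2.4.6, pandas 2.3.3, scipy 1.17.1 and matplotlib 3.10.9.

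The 9 genes and all lists were chosen with earlier results of these data known. Genes named beyond the 9 were the 2 most alike by Pearson's r per gene, the 3 smallest p per pathway list, the 2 highest means per marker list and transcripts of at least 10% of a gene. Alternatives changed the pseudocount (0.1), filter (none or 5 TPM), scaling, covariates, weights and replicate block, and left out each mouse. A sum over complete protein-coding transcripts alone was added after the data had been seen.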

Additional observations from a re-analysis of the deposited data

Results flagged for a closer look

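Of 80 groups of 5 mice checked for a mouse far from the others (the 9 genes, their named transcripts and the marker scores), 1 stood out, where chance alone would mark about 1 in 20. It was the megakaryocyte and platelet score of wild-type replicate 1, at 5.92 beside 6.39 to 6.50 in the other wild-type mice. In that mouse Thbs1 was also at its lowest, 40.7 TPM. Whether one bears on the other was not tested.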

How the results depend on the processing

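Postn, Tnc and Sparc had an unadjusted p under 0.05 in 20 of 21 alternatives each, all but the fit with the osteoblast score. Of the 9 genes, 3 were lower at that p, and the number was 0 with the osteoblast score and 5 with the fibroblast score, where 3 passed adjustment. Of the 9 genes and the pathway genes named by rule, 14 passed in that fit, namely Postn, Tnc, Sparc and the pathway genes other than Itgb3, and the other named genes were not followed across settings. The number higher was 0, and 1 after rescaling without haemoglobin genes, 1 with the fibroblast score, 3 with the osteoblast score and 0 to 1 when single mice were left out. Over all genes, 0 passed adjustment, but 1 did with the osteoblast score, 959 with the fibroblast score and 0 to 1 when mice were left out. Genes lower at an unadjusted p under 0.05 numbered 591 after rescaling without haemoglobin genes, 109 and 2332 with the osteoblast and fibroblast scores and 614 (without wild-type replicate 1) to 1354 (without Mir324-null replicate 3). They numbered 629 without Mir324-null replicate 1 and 671 without replicate 5. Higher genes numbered 1228 after rescaling without haemoglobin genes and 916 after median ratio scaling.

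With the osteoblast score, the sign turned for Thbs1 (-0.063), Fn1 (1.17), Sparc (0.054), Vcan (0.72), Tgfbi (0.21), Hapln1 (0.027), Adamts9 (0.011) and the medians of matricellular relatives (0.22), integrins and receptors (0.13), versican handling (0.10) and fibronectin partners (0.25). With the fibroblast score it turned for Thbs2 (-0.24) and Sparcl1 (-0.42), with array weights for Fn1 (0.14), and for Tgfbi after median ratio scaling (0.055) and without haemoglobin genes (0.082), where the neutrophil score also turned (0.0029). Leaving out single mice turned values near 0: Thbs2 (-0.10 to 0.20), Fn1 (-0.33 to 0.18), Sparcl1 (-0.33 to 0.30), Tgfbi (-0.10 to 0.068), the Fn1 transcripts of 7797 bases (-0.47 to 0.00035), 4022 bases (-0.0037 to 0.65) and 495 bases (-0.42 to 0.10), Vcan-208 (-0.18 to 0.11) and the tendon (-0.042 to 0.45), monocyte (-0.045 to 0.061) and neutrophil (-0.26 to 0.059) scores. The median of the matricellular relatives was -0.058 with no filter and -0.14 without haemoglobin genes, where that of the integrins and receptors was -0.064. The cause was not tested.

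Same-numbered mice did not deviate together (r from -0.14 to 0.056, 0 of 5 pairs above 0.1). With the replicate number as a block Postn was at -1.12 (adjusted p = 0.529), and no call changed. The limits are the unknown depth, the mixed tissue, 1 table of relative values and 5 mice a group.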

Other observations

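Markers of vessel walls, a tissue that also makes matricellular proteins, were read from the same fit. Rgs5, a marker of pericytes, had a mean of 23.7 ± 5.68 TPM in null mice (SD, n = 5), with a log2 difference of -0.74 (limma adjusted p = 0.277). Mcam was at 8.38 ± 0.965 and 5.82 ± 1.89 TPM (difference -0.50, limma adjusted p = 0.354). Of the mural and smooth muscle markers 3 of 6 were lower at an unadjusted p under 0.05, and of the endothelial markers 2 of 8, beside 7.3% of all genes. The 3 mural markers were Rgs5, Mcam and Notch3, while the contractile genes Acta2, Tagln and Myh11 had differences of 0.042, -0.12 and -0.21 that did not pass. Across the 10 mice Tnc had r = 0.89 and rho = 0.92 with the endothelial score (adjusted permutation p = 0.00621 and 0.0187, r = 0.88 without the 2 farthest mice), and Vcan had r = 0.85 and rho = 0.84 (adjusted permutation p = 0.00671 and 0.031, r = 0.74 without the 2 farthest mice).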
